A study of Mus musculus with 7 samples.

Results

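The semaphorin, ephrin, Slit and netrin guidance genes were taken from the deposited table of mouse mammary basal cells by symbol, and covered semaphorins of classes 3 to 7, plexins, ephrins, Eph receptors, Slit1 to Slit3, Robo1 to Robo3, netrins and Unc5 receptors. The pattern matched 68 of the 56440 gene models. Where 1 symbol had 2 rows, the row with the higher mean was kept, which left 65 genes. Of these, 63 carry the plain symbol, and 2 (Plxnb2 and Sema4a) share their row with the name of a microRNA written in front.

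RNA sequencing was done on basal cells, the contractile myoepithelial layer between the milk-secreting luminal cells and the basement membrane, sorted by FACS from fresh glands on day 2 of lactation. There were 3 a3a6KO libraries, whose titles say Blg positive, and 4 Ctrl libraries, whose titles say Blg negative. The mutants are named for the laminin-binding integrin subunits α3 and α6. Blg is taken here, from knowledge of such lines, as a Cre under the beta-lactoglobulin promoter, which works in luminal cells and not in basal cells, so the sorted cells are neighbours of those meant to lose the integrins. Strain, age, the alleles of the controls and the gates of the sort are not stated in the labels. All mutants and no controls carried Blg, and therefore an effect of Blg itself and of integrin loss cannot be told apart.

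Guidance molecules were first described in the growth of axons. They act in pairs of ligand and receptor on neighbouring cells: semaphorins bind plexins, often with neuropilins, ephrins bind Eph receptors and can signal back into the cell that carries them, Slits bind Robos, and netrins bind DCC, neogenin or Unc5 receptors. The receptors act mainly on the cytoskeleton and on adhesion, and in the mammary gland several of these pairs are known to act in duct branching and in the contact between the basal and luminal layers.

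The libraries held 9368418 to 18454773 reads in a3a6KO and 14480615 to 21548279 reads in Ctrl. The 11 basal markers summed to normalised read counts of 907689 to 1012116 in a3a6KO and 806276 to 1088120 in Ctrl, with none at 0. Markers of other cells were present. The 13 fibroblast markers, none at 0, summed to 25048, 21927 and 32236 in a3a6KO, against 17238, 17894, 28623 and 21264 in Ctrl. The 18 endothelial markers, none at 0, summed to 12668, 16759 and 17877 in a3a6KO replicates 1 to 3, against 6886, 8146, 7120 and 10518 in Ctrl replicates 1 to 4, so every mutant library lay above every control. The 15 luminal markers, none at 0, summed to 103476, 168444 and 362274 in a3a6KO, against 194453, 135763, 633682 and 823347 in Ctrl. In such bulk samples fewer cells of a type and less RNA per cell cannot be told apart. The targeted transcripts did not separate the groups, with 494, 581 and 818 for Itga3 in a3a6KO against 719, 542, 465 and 654 in Ctrl, and with 9083, 8343 and 8574 for Itga6 in a3a6KO against 10338, 10603, 7764 and 8678 in Ctrl. These values cover whole genes and need not show the loss of an exon. The sorted cells are also taken here as neighbours of those meant to lose the integrins.

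Of the 65 genes, 58 had reads in at least 1 library, and 52 passed the filter of a normalised read count of at least 10 in at least 3 libraries and were tested. The 7 at 0 in all libraries were Sema4f, Epha5, Epha8, Epha10, Slit1, Ntn5 and Unc5d, where a count of 0 allows up to 3 reads, which is a normalised count of 2.27 to 5.34 depending on the library and covers counting error only. The other 6 not tested (Sema3a, Plxnb3, Plxnc1, Epha6, Robo3 and Unc5c) reached at most 16.6 in a library. Levels of different genes are compared here per kilobase of merged exons in the GENCODE annotation. The authors' gene models may have other lengths.

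Members of every role were found in the libraries of sorted basal cells, which also held RNA of other cells. The cell type behind each value was not tested. Per kilobase the semaphorin Sema3c (1152 ± 179 in a3a6KO, SD, n = 3, and 984 ± 76.2 in Ctrl, SD, n = 4) and the ephrin Efna1 (1488 ± 1037 and 976 ± 219) stood at the top of their groups. They were followed by the Eph receptor Ephb6, at 764 ± 60.8 in a3a6KO and 748 ± 198 in Ctrl, and Sema3f, at 641 ± 117 in a3a6KO and 521 ± 56.2 in Ctrl. For each pair of neighbours in this order, the ranges of mean ± SD overlapped in at least 1 genotype, although the means of Sema3c and Ephb6 lay outside each other's range in both. The most abundant plexin was Plxnb2 (243 ± 56.3 in a3a6KO and 242 ± 52.9 in Ctrl), the most abundant Slit was Slit3 (282 ± 27.9 and 410 ± 73.6), and the most abundant netrin was Ntn4 (241 ± 34.9 and 272 ± 84.4). Robo1 was low, with 6.26 ± 2.34 per kilobase in a3a6KO and 8.16 ± 0.975 in Ctrl. All 52 are in the plot of levels by library.

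**Figure D1:**
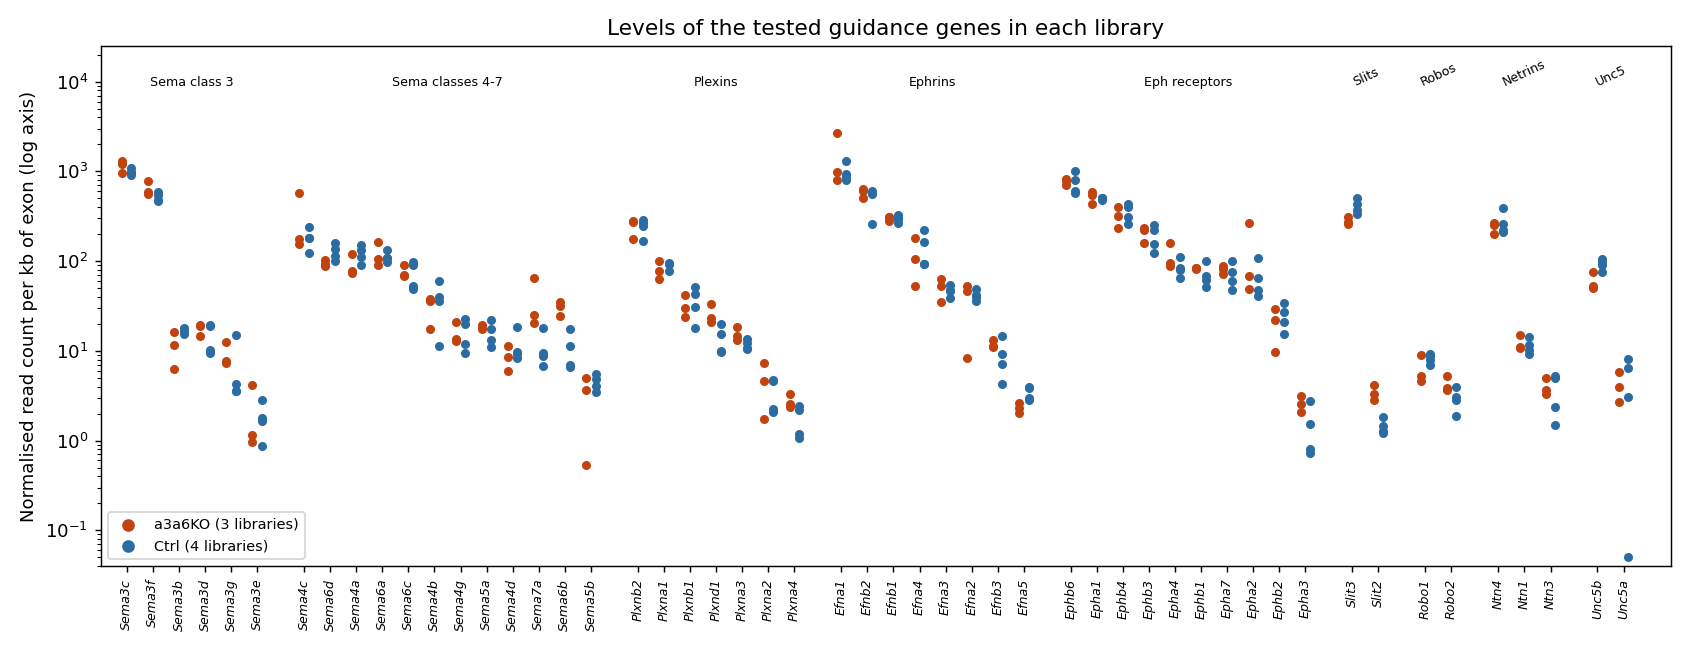
Normalised read count per kilobase of exon (log axis) of each tested guidance gene, grouped by role, with 1 point per library, a3a6KO left of Ctrl. Within most genes the 3 a3a6KO and 4 Ctrl points overlap, and the genes span several orders of magnitude. The control at 0 for Unc5a is drawn at 0.05.

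No guidance gene passed at an adjusted p under 0.05 in limma, and neither did any of the 16889 genes tested (0.0% called, and 6.32% at an unadjusted p under 0.05). On the recovered reads edgeR called none of these genes and DESeq2 called 77. Of the 52 guidance genes, 7 had an unadjusted p under 0.05 in limma, or 13.5%. Sema6b, Sema7a, Slit2 and Plxnd1 were higher in a3a6KO, where 3.55% of all genes tested had such a p with a higher value, and Slit3, Unc5b and Sema6d were lower, where the share of all genes was 2.78%. The groups did not overlap in 7 of the 52, where 7.51% of all genes tested had no overlap. In a3a6KO, 4 of the 7 were higher (4.0% of all genes) and 3 lower (3.51% of all genes). Of the 3 lower, Efna5 passed the filter only through its controls. Fold changes were above 1 in 35 of the 52, or 67.3%, and in 49.5% of all genes tested. The 35 include Epha3, which passed the filter only through its mutants. Differences are given as a3a6KO minus Ctrl in log2(value + 1). The median over the 52 was 0.12 and that over all genes tested −0.0040. The median over the 52 was 0.21 without a3a6KO replicate 1, 0.19 without Ctrl replicate 2, 0.07 without Ctrl replicate 4 and 0.046 with library weights.

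**Figure D2:**
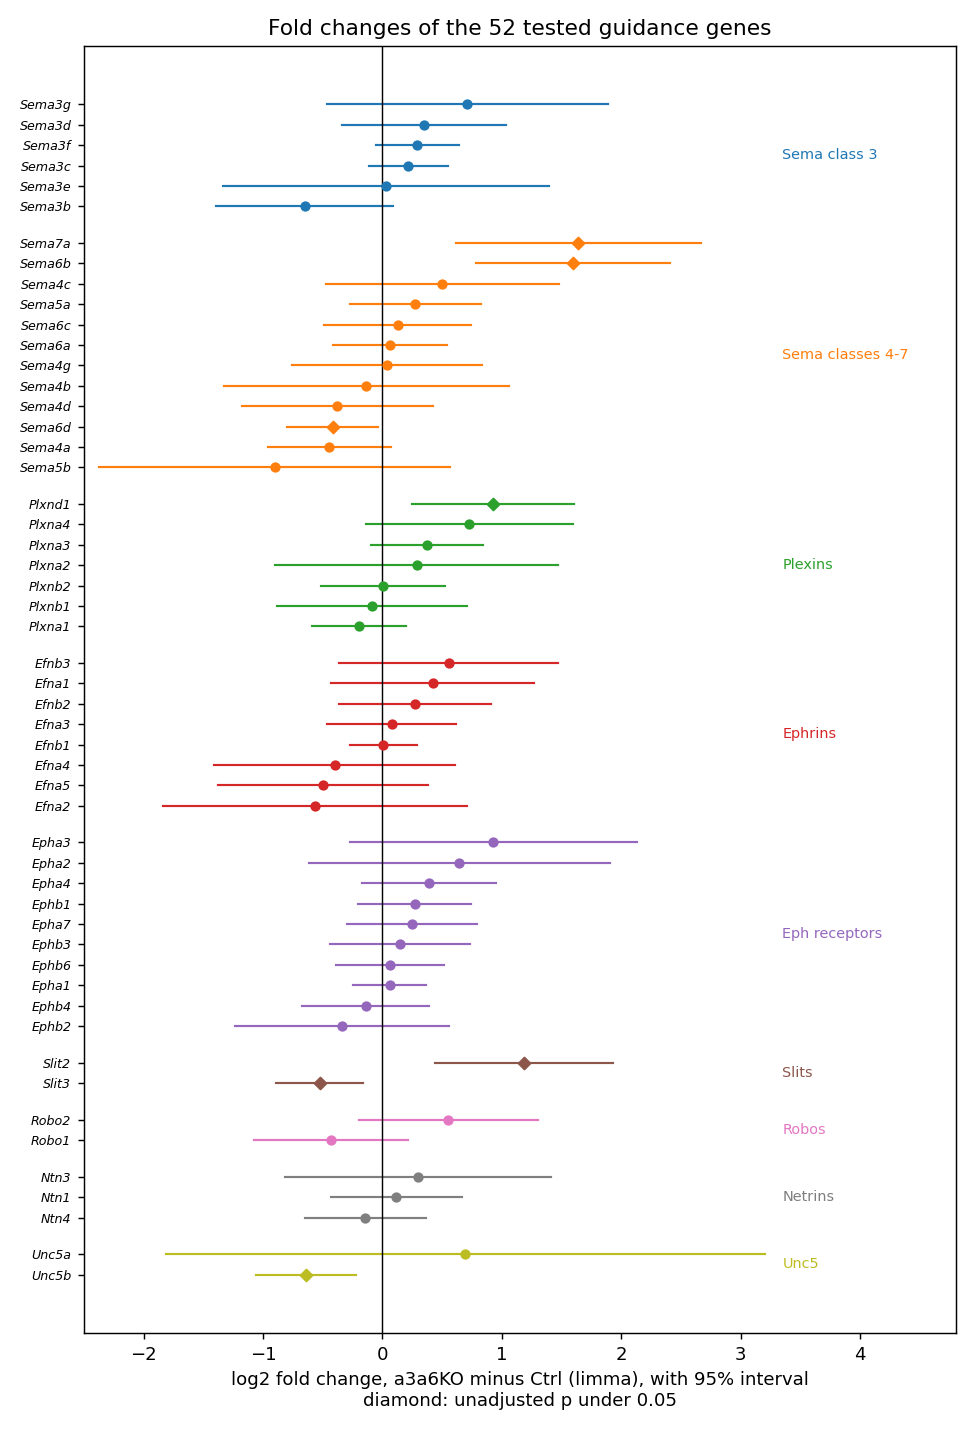
Fold changes (log2, a3a6KO minus Ctrl, limma) of the 52 tested guidance genes with their 95% intervals, grouped by role. Diamonds mark the 7 genes with an unadjusted p under 0.05, 4 to the right of 0 and 3 to the left; none passed after adjustment.

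The membrane-bound semaphorins held the largest differences. Sema6b, a transmembrane class 6 semaphorin that binds A-type plexins (identifier GSMG0017687, mm10 chromosome 17, 56123085 to 56140345, minus strand), had normalised read counts of 96.1, 127 and 139 in a3a6KO replicates 1 to 3, against 26.1, 45.2, 27.5 and 68.8 in Ctrl replicates 1 to 4. Every a3a6KO library lay above every control, and Ctrl replicate 4 was the highest control. The log2 fold change was 1.59 (SE 0.36, 95% interval 0.78 to 2.41), with a limma adjusted p of 0.551 and an edgeR adjusted p of 0.592. DESeq2 on the recovered reads called it at an adjusted p of 0.0281, the 1 guidance gene among its calls, which were 0.456% of the genes tested (0.343% higher).

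Sema7a, a GPI-anchored semaphorin known to bind β1 integrins and plexin C1 (GSMG0039597, chromosome 9, 57940112 to 57962864, plus strand), had 67.9, 81.8 and 212 in a3a6KO, against 29.1, 22.6, 31.2 and 59.0 in Ctrl. The groups did not overlap, a3a6KO replicate 3 was far above the other mutant libraries, and Ctrl replicate 4 was again the highest control. The log2 fold change was 1.64 (SE 0.45, interval 0.61 to 2.67) with a limma adjusted p of 0.551 and a DESeq2 adjusted p of 0.0557, and 1.14 without a3a6KO replicate 3. Plexin C1 itself, added here as a partner after its values were seen, reached at most 6.63 in a library and was not tested.

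Sema6d, which binds plexin A1 (GSMG0021705, chromosome 2, 124089966 to 124667789, plus strand), had 733, 629 and 660 in a3a6KO, against 969, 1129, 814 and 730 in Ctrl, so that Ctrl replicate 4 lay just below a3a6KO replicate 1 and the groups overlapped. The difference was −0.42 on the log2 scale (SE 0.17, limma adjusted p = 0.741). Sema4a, a class 4 semaphorin, had 263, 256 and 407 in a3a6KO, against 457, 520, 314 and 381 in Ctrl, a difference of −0.44 on the log2 scale (SE 0.23). The groups of Sema4a overlapped, as a3a6KO replicate 3 lay above Ctrl replicates 3 and 4.

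Sema4c, a ligand of plexin B2, had 747, 661 and 2470 in a3a6KO, against 767, 775, 528 and 1030 in Ctrl. A log2 fold change of 0.50 (SE 0.43) rested on a3a6KO replicate 3 and turned to −0.10 without that library. Sema6a had 638, 760 and 1165 in a3a6KO, against 781, 941, 692 and 765 in Ctrl, a log2 fold change of 0.07 (SE 0.21) that turned to −0.18 without a3a6KO replicate 3 and to −0.16 with library weights. In all, 12 of the 13 membrane semaphorins were tested, 7 with a fold change above 1 and 5 below, and the median on the log2 scale was 0.05.

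The promoter of Sema6b is shown because this gene had the smallest p of the 52, and those of Slit2 and Slit3 because these ligands of the same receptors had fold changes of opposite sign, neither of which passed after adjustment. Each runs 5′ to 3′ on the gene's strand, from 250 bases before to 50 bases after the RefSeq start (GRCm38.p6). Capitals mark GGGCGG, the core of the GC box, and TATAAA, which resembles the TATA box, each on either strand. The E-box CACGTG, the AP-1 motif TGACTCA and the TEAD motif GGAATG were searched in the same way. Matches that overlap are joined.
Sema6b: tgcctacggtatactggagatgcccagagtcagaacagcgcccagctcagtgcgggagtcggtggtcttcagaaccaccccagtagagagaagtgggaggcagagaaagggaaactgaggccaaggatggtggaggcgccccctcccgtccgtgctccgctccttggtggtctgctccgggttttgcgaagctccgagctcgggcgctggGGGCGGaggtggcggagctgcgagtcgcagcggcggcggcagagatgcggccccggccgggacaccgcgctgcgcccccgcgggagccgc
Slit2: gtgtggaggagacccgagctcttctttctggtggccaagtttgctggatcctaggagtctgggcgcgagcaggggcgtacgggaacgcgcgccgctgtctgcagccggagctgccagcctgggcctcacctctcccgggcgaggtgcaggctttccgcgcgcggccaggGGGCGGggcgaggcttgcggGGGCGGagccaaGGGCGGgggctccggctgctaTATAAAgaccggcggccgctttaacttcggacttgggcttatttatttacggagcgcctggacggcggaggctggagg
Slit3: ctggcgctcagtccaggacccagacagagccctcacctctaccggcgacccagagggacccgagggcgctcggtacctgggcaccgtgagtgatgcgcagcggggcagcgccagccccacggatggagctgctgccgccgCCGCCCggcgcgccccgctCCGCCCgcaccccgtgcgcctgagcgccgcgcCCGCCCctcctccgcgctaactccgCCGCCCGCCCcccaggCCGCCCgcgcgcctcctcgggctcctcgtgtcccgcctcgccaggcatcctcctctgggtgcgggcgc
The windows are chr17:56140294-56140593 for Sema6b, chr5:47982905-47983204 for Slit2 and chr11:35121206-35121505 for Slit3. RefSeq lists a further start for Sema6b, with a window at chr17:56133803-56134102 that is not printed. The window of Sema6b held 1 match to GGGCGG, that of Slit2 held 3 and that of Slit3 held 6, overlapping matches counted apart. Of the 32851 promoters searched, 35.7% held at least 1, a share that is no background for counts of 3 or 6. The bases G and C made up 69.0% of the Sema6b window, 68.0% of that of Slit2 and 78.3% of that of Slit3. The median over all promoters was 52.7%. The Slit2 window alone of the 3 held TATAAA, which was present in 13.6% of all promoters. The other motifs, held by 7.15% (E-box), 5.20% (AP-1) and 14.7% (TEAD) of all promoters, had no match in any of the 3. The window at the further start of Sema6b held 1 match to GGGCGG and 1 to the AP-1 motif. A match is a run of letters and does not show that a factor binds.

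**Figure D3:**
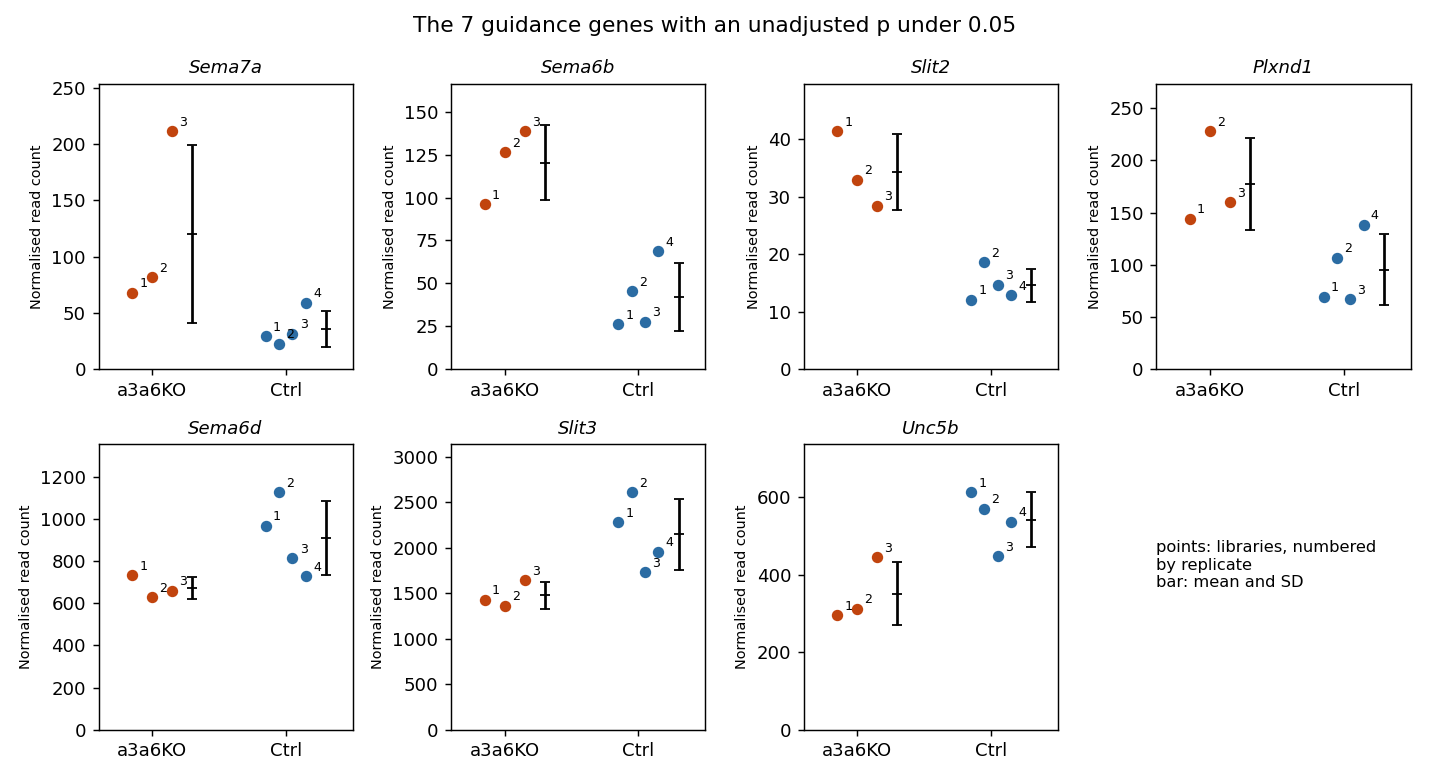
Normalised read counts of the 7 guidance genes with an unadjusted p under 0.05, a3a6KO left of Ctrl, with 1 numbered point per library and the mean and SD beside each group (n = 3 and n = 4). In Sema7a, Sema6b, Slit2 and Plxnd1 each a3a6KO point is above each control, in Slit3 and Unc5b below, and in Sema6d the groups overlap.

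The secreted class 3 semaphorins, which act through neuropilins and plexins, had no unadjusted p under 0.05 among the 6 tested. Sema3c had 6657, 5222 and 7101 in a3a6KO, against 4947, 5275, 5447 and 5950 in Ctrl. The log2 fold change of 0.22 (SE 0.14, interval −0.11 to 0.55) did not pass, with a3a6KO replicate 2 inside the range of the controls. Sema3f, which acts mainly through neuropilin 2, had 1945, 2702 and 2062 in a3a6KO, against 1889, 2058, 1687 and 1629 in Ctrl, a log2 fold change of 0.29 (SE 0.15). Sema3b had 43.1, 60.7 and 23.1 in a3a6KO, against 57.2, 66.3, 61.5 and 64.3 in Ctrl, a log2 fold change of −0.65 (SE 0.33) that was −0.28 without a3a6KO replicate 3. The controls of Sema3b lay close together, and the spread was among the mutants. The other 3 tested (Sema3d, Sema3e and Sema3g) had log2 fold changes of 0.03 to 0.71, all with an unadjusted p above 0.2.

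Among the plexins, the semaphorin receptors, Plxnd1 had the smallest p. Plxnd1 (GSMG0033560, chromosome 6, 115954808 to 115995007, minus strand), the receptor of Sema3e best known from blood vessels, had 144, 228 and 160 in a3a6KO, against 69.3, 107, 67.0 and 138 in Ctrl. The highest control, Ctrl replicate 4, lay just below the lowest mutant library. Its log2 fold change was 0.93 (SE 0.30, interval 0.25 to 1.61), with a limma adjusted p of 0.665 and a DESeq2 adjusted p of 0.302. Its ligand Sema3e, added as a partner after its values were seen, was near the filter, at 6.63, 7.91 and 28.5 in a3a6KO, against 6.02, 12.1, 19.3 and 11.3 in Ctrl.

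Plxna4, a receptor of class 6 semaphorins, had 33.1, 30.3 and 42.7 in a3a6KO, against 15.1, 13.7, 28.5 and 31.0 in Ctrl (log2 fold change 0.73, SE 0.38). Plxna3 had 92.0, 102 and 128 in a3a6KO, against 93.4, 85.6, 73.4 and 75.6 in Ctrl (0.37, SE 0.21). In each of them 1 control lay inside the range of the mutants. The abundant plexins overlapped between the groups: Plxnb2 had 1168, 1770 and 1841 in a3a6KO, against 1880, 1750, 1089 and 1632 in Ctrl, and Plxna1 had 567, 902 and 699 in a3a6KO, against 837, 872, 706 and 843 in Ctrl. The log2 fold change was 0.0059 for Plxnb2 (SE 0.23, interval −0.51 to 0.52), with a sign that turned in 6 of 18 alternatives, and −0.19 for Plxna1 (SE 0.17). Of 7 plexins tested, 5 had a fold change above 1.

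The endothelial sum, like Sema6b, Sema7a and Plxnd1, was higher in every a3a6KO library than in every control. Ctrl replicate 4, the highest control for all 3 genes, had the highest endothelial sum of the controls (10518). It also had the highest control sums of the basal (1088120), luminal (823347), pericyte and red blood cell lists. Among the mutants Sema6b, Sema7a and the endothelial sum were lowest in replicate 1 and highest in replicate 3, whereas Plxnd1 was highest in replicate 2. Among the controls Sema6b had the same order of libraries as the endothelial sum, and Sema7a did not. Slit2, also higher without overlap, was highest among the controls in Ctrl replicate 2. All 18 endothelial markers were above 0 and tested, with a median of 1.02 on the log2 scale. Of these, 17 had a fold change above 1, against 49.5% of all genes tested. An unadjusted limma p under 0.05 was found for 15, all higher, where 3.55% of all genes had such a p with a higher value. None of the 18 passed after adjustment in limma. The 12 pericyte and vascular smooth muscle markers, none at 0, summed to 4039, 5799 and 5231 in a3a6KO, against 4350, 3181, 4000 and 5383 in Ctrl, and the 5 red blood cell genes, none at 0, to 639.6, 787 and 612 in a3a6KO, against 25.1, 189.9, 242 and 359 in Ctrl. The part of RNA from vessels or blood in the values of these guidance genes was not tested.

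The 2 Slit ligands tested had fold changes of opposite sign, and neither passed after adjustment. Slit2 (GSMG0029146, chromosome 5, 47983154 to 48307733, plus strand) had 41.4, 33.0 and 28.5 in a3a6KO, against 12.05, 18.6, 14.7 and 12.9 in Ctrl. The lowest mutant library was above the highest control, but these values rest on 50, 25 and 16 reads in a3a6KO and on 12, 23, 16 and 17 reads in Ctrl. The log2 fold change was 1.18 (SE 0.33, interval 0.44 to 1.93, limma adjusted p = 0.551), and DESeq2 gave no adjusted p at this depth.

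Slit3 (GSMG0005034, chromosome 11, 35121456 to 35708499, plus strand), the abundant Slit, had 1427, 1362 and 1640 in a3a6KO, against 2280, 2613, 1731 and 1956 in Ctrl. The highest mutant library lay below the lowest control. The log2 fold change was −0.53 (SE 0.16, interval −0.89 to −0.16), with a limma adjusted p of 0.631 and a DESeq2 adjusted p of 0.232. Per kilobase of exon, at 5.228 kilobases for Slit3 and 10.023 for Slit2, the ratio of Slit3 to Slit2 was 66.0, 79.2 and 110 in a3a6KO, against 363, 270, 226 and 292 in Ctrl. Slit3 thus remained the far more abundant Slit in every library. The size of the ratio depends on these lengths, whereas the fold between the groups does not. Because Slit2 was higher and Slit3 lower in every a3a6KO library than in every control, their ratio was bound to separate the groups. This separation adds no evidence beyond the values of each gene, and the ratio rests on the few Slit2 reads given above.

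The receptors of the Slits were low and did not pass. Robo1, through which Slits are known to act in mammary basal cells, had 34.8, 39.6 and 67.6 in a3a6KO, against 69.3, 65.4, 52.3 and 59.8 in Ctrl, a log2 fold change of −0.43 (SE 0.28) with a3a6KO replicate 3 among the controls. Robo2 had 34.0, 33.0 and 46.3 in a3a6KO, against 27.1, 25.05, 34.9 and 16.6 in Ctrl, a log2 fold change of 0.55 (SE 0.33). Robo4, the Robo of blood vessels and not a member of the set, had 473, 934 and 865 in a3a6KO, against 251, 289, 286 and 378 in Ctrl, with no overlap (log2 fold change 1.28, SE 0.25, adjusted p = 0.515 in limma). DESeq2 called Robo4 at an adjusted p of 0.0023.

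Among the netrins and their Unc5 receptors, Unc5b had the smallest p and did not pass after adjustment. Unc5b, a netrin receptor that can also promote cell death when unbound (GSMG0004138, chromosome 10, 60762595 to 60831584, minus strand), had 296, 313 and 445 in a3a6KO, against 614, 570, 447 and 536 in Ctrl. The groups were separated only by the narrow gap between a3a6KO replicate 3 and Ctrl replicate 3. Its log2 fold change was −0.64 (SE 0.18, interval −1.06 to −0.22), with a limma adjusted p of 0.582 and a DESeq2 adjusted p of 0.198. Unc5b is also known from endothelial cells, and the part of endothelial RNA in its values was not tested.

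No netrin had an unadjusted p under 0.05. Ntn4, a netrin that binds laminin in basement membranes, had 926, 973 and 733 in a3a6KO, against 1443, 812, 779 and 940 in Ctrl, with Ctrl replicate 1 high. Its log2 fold change was −0.14 (SE 0.22) and turned to 0.05 without Ctrl replicate 1. Ntn1 had 66.3, 67.2 and 92.5 in a3a6KO, against 56.2, 63.0, 71.6 and 87.0 in Ctrl, or 0.12 on the log2 scale (SE 0.24), and −0.04 without a3a6KO replicate 3. Unc5a was near the filter, with 23.2, 15.8 and 10.7 in a3a6KO, against 0, 12.1, 32.1 and 25.7 in Ctrl, and its fold change had no stable sign: 0.70 (SE 1.11), against −0.43 without Ctrl replicate 1 and −0.07 in DESeq2. Of the other netrin receptors, chosen after their values were seen, neogenin (Neo1) had 753, 637 and 836 in a3a6KO, against 834, 859, 598 and 704 in Ctrl, and Dcc was at 0 in all 7 libraries.

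Ephrins and Eph receptors made up 18 of the 52 tested genes, and none of the 18 had an unadjusted p under 0.05, against 6.32% of all genes tested, a share at which few of 18 would be found. Efnb2, a transmembrane ephrin also known as a marker of arteries, had 3024, 2414 and 2884 in a3a6KO, against 1254, 2694, 2896 and 2779 in Ctrl. Ctrl replicate 1 stood far below all other libraries, and the log2 fold change of 0.27 (SE 0.28) turned to −0.01 without it. A short second gene model inside Efnb2, which was not the one kept, had 63.0, 56.7 and 32.0 in a3a6KO, against 22.1, 25.05, 11.02 and 13.6 in Ctrl (log2 fold change 1.46, SE 0.40, limma adjusted p = 0.551). It was singled out after its values were seen.

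Efna1, the GPI-anchored ligand of EphA2, had 1783, 1479 and 4907 in a3a6KO, against 1703, 1585, 1482 and 2371 in Ctrl. Its log2 fold change of 0.42 (SE 0.38, interval −0.43 to 1.27) turned to −0.11 without a3a6KO replicate 3. Its receptor Epha2, singled out after its values were seen, followed the same libraries, with 191, 264 and 1041 in a3a6KO, against 162, 254, 185 and 429 in Ctrl (log2 fold change 0.64, SE 0.56). For both genes a3a6KO replicate 3 was the highest library and Ctrl replicate 4 the next, and the other libraries of the groups overlapped. In the opposite sense, the ligand Efna2, also singled out after its values were seen, had 114, 98.9 and 17.8 in a3a6KO, against 103, 84.0, 89.1 and 75.6 in Ctrl, with a3a6KO replicate 3 the lowest library.

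The most abundant Eph receptors had fold changes close to 1. Ephb6, a member without kinase activity, had 2916, 2629 and 3082 in a3a6KO, against 3784, 3010, 2169 and 2295 in Ctrl, a log2 fold change of 0.06 (SE 0.20, interval −0.39 to 0.51). Epha1 had 2019, 1861 and 1463 in a3a6KO, against 1643, 1714, 1705 and 1703 in Ctrl, a log2 fold change of 0.06 (SE 0.14, interval −0.25 to 0.37) that turned to −0.04 without a3a6KO replicate 1. The controls of Epha1 were close together, and the mutants lay on both sides of them. Over the 10 Eph receptors tested the log2 fold changes ran from −0.34 to 0.93, 8 of them above 0, and over the 8 ephrins from −0.56 to 0.56, 5 of them above 0. Efna5, at 8.29, 9.23 and 10.7 in a3a6KO against 16.1, 12.1, 15.6 and 11.3 in Ctrl, was the 1 ephrin without overlap (log2 fold change −0.50, SE 0.39) and was named for that after its values were seen. It lay at the filter and passed it only through its controls, as replicate 3 alone of the mutants reached 10. Its values rest on 86 reads over all libraries, and its unadjusted limma p was 0.23.

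**Figure D4:**
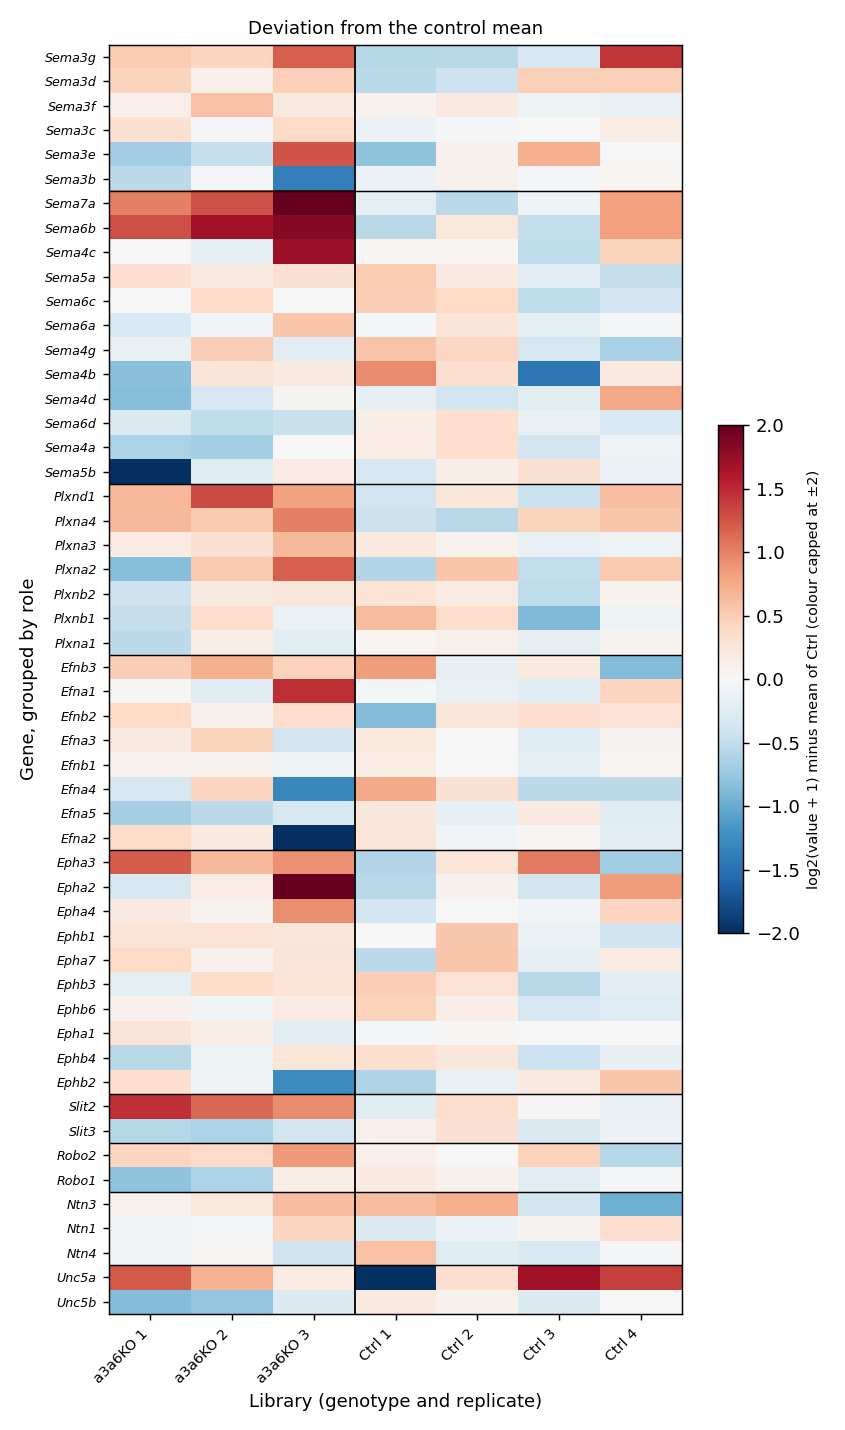
Deviation of each library from the control mean, in log2(value + 1), for the 52 tested guidance genes grouped by role, with a3a6KO libraries left of the line and Ctrl right of it. Sema6b, Sema7a, Slit2 and Plxnd1 are red in all 3 a3a6KO columns, whereas Sema4c, Efna1 and Epha2 are most strongly red in a3a6KO replicate 3.

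The library a3a6KO replicate 3 was the highest of the 7 in 15 of the 52 tested guidance genes, or 28.8%, and in 21.7% of all genes tested. Ctrl replicate 1 was the highest in 16 of the 52, or 30.8%, and in 19.9% of all genes. As the lowest library, a3a6KO replicate 3 stood in 7 of the 52, or 13.5%, and in 21.4% of all genes. Ctrl replicate 1 was the lowest in 12 of the 52, or 23.1%, and in 18.4% of all genes. The library a3a6KO replicate 3 also had the fewest reads and the lowest of the 7 library weights, 0.467. The part of depth in these extremes was not tested.

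Of the co-receptors and other netrin and Slit receptors that are not members, 9 of 11 were tested, 6 with a fold change above 1 and 3 below, and 3 of the 9 (33.3%) had an unadjusted p under 0.05, against 6.32% of all genes tested: Robo4, Nrp1 and Sdc3. Neuropilin 1 (Nrp1), the co-receptor of class 3 semaphorins and of VEGF, had 1413, 1864 and 1646 in a3a6KO, against 641, 885, 967 and 1272 in Ctrl, with no overlap and Ctrl replicate 4 the highest control. This gave a log2 fold change of 0.83 (SE 0.22) with a limma adjusted p of 0.551. The heparan sulphate proteoglycan Sdc3 had −0.50 (SE 0.18).

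Of the 35 signalling genes that act below these receptors, 30 were tested, 15 with a fold change above 1 and 15 below, and a median of −0.0084 on the log2 scale. None passed after adjustment. An unadjusted p under 0.05 was found for 3 of the 30, all of them lower, where the share of all genes tested was 6.32% in either direction and 2.78% lower. These were Vav2, an exchange factor recruited by Eph receptors (−0.58, SE 0.19), Tiam1, an exchange factor for Rac (−0.96, SE 0.41), and Srgap3, a GTPase-activating protein of the Slit and Robo pathway (−1.21, SE 0.52). Vav2 had 247, 165 and 160 in a3a6KO, against 297, 283, 262 and 277 in Ctrl, with no overlap.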

How the data were processed

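FACS-sorted basal cells of lactating glands were sequenced from SMARTer v4 libraries, per the labels' protocols. The deposited values are a signal: gene counts that the authors divided by 1 DESeq2 size factor per library, per the submitters' processing notes and the file headers. These notes also name STAR 2.4.0, FastQC, Picard, SAMtools and mm10. The read counter and strand setting are not stated in the labels. Values are not corrected for length. Of the values above 0, 100% were whole multiples of a step per library, within 0.01 of a read. The step of Ctrl replicate 1 is close to 1, where this is weaker evidence. Even numbers made up 61.8% to 63.8% of recovered counts from 1 to 20, so 1 fragment may at times count more than 1 read.

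Libraries were grouped by the genotype label, and no label gives a batch. The labels call them biological replicates. The main test was limma 3.58.1 in R 4.3.3, two-sided, on log2(value + 1) with a trended empirical Bayes prior. It covered the 16889 genes that reached 10 in 3 or more libraries, with Benjamini-Hochberg adjustment at 0.05. The added 1 shrinks the log difference between low values. Recovered reads were also tested with DESeq2 1.42.0 and with the quasi-likelihood test of edgeR 4.0.16. Other pseudocounts, filters, scalings, library weights and the loss of each library were tried too, and the fits were first tested on simulated data.

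The members and gene lists were chosen with earlier results of these data known. Genes were named by rule: up to 2 with the highest mean in each role, and the 12 with the smallest p. Of lists of other genes, up to 3 with the smallest p were named. Exceptions are marked. Exon lengths came from GENCODE vM21 (65 of 65 symbols matched) and promoters from RefSeq (56 of 65 matched). Of the genes named by rule, Plxna1 (10.7% of exon bases), Epha1 (6.97%), Plxna4 (0.854%) and Unc5a (0.851%) share exon bases with other genes in GENCODE, so part of their reads is uncertain.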

Additional observations from a re-analysis of the deposited data

Results flagged for a closer look

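In 2 of the 26 named genes, 1 of the 4 controls lay far from the others, and in groups of this size chance alone marks about 1 in 20. For Efnb2, Ctrl replicate 1 was at 1254, while the other controls had 2694, 2779 and 2896. For Epha1, it was also Ctrl replicate 1 that was lowest, at 1643, a small gap beside the very close values of 1703, 1705 and 1714 in the other controls.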

How the results depend on the processing

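No guidance gene passed an adjusted p of 0.05 under any limma alternative or in edgeR (7 at an unadjusted p under 0.05), and 1 passed in DESeq2 (Sema6b, log2 fold change 1.51), where 77 of all genes were called. The count at an unadjusted p under 0.05 was 6 to 9 with 1 library left out, 10 with library weights and 7 without Plxnb2 and Sema4a, an alternative chosen after seeing the data. The share of all genes tested at such a p was counted for the main fit only (6.32%). The counts under the other fits are therefore not read as results about the guidance genes. The median was 0.07 to 0.21 with 1 library left out. Of the 26 named genes, 16 kept their direction in all alternatives run for them, among them the 7 with the smallest p. These were 18, or 17 for Slit2, Plxna4 and Robo2, which did not pass the stricter filter of 50. With 1 library left out, Sema4c ran from −0.10 to 0.85, Sema6a from −0.18 to 0.25, Plxnb2 from −0.17 to 0.22, Efna1 from −0.11 to 0.75, Efnb2 from −0.014 to 0.39, Epha1 from −0.036 to 0.20, Ephb6 from −0.049 to 0.22, Ntn1 from −0.038 to 0.23, Ntn4 from −0.25 to 0.051 and Unc5a from −0.43 to 1.25. The library whose loss turned the sign was a3a6KO replicate 3 for Sema4c, Sema6a, Efna1 and Ntn1, Ctrl replicate 1 for Efnb2, Ntn4 and Unc5a, a3a6KO replicate 1 for Epha1, and Ctrl replicate 3 or 4 (−0.022) for Ephb6. For Plxnb2 it was a3a6KO replicate 2 (−0.084) or 3 (−0.11) or Ctrl replicate 3. Plxnb2 also turned under quantile normalization (−0.039), with library weights (−0.18) and in edgeR (−0.0015), Sema6a with library weights (−0.16), and Unc5a in edgeR (−0.058) and DESeq2 (−0.070). The cause was not tested. No paired analysis was possible because the labels carry no replicate numbers that link the groups. Genes with few reads, such as Slit2, are limited by depth.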
